A study of Mus musculus with 103 samples.

Results

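Gastric adenocarcinomas of the mouse, invasive tumours of the glandular stomach, were compared with gastric adenomas, its benign glandular tumours. The samples were chosen by their tissue label alone and comprised 4 dissected primary adenocarcinomas and 7 dissected adenomas, which together made up 11 of the 56 primary tumours and of the 103 samples in the series. The series followed Prom1-expressing cells of many mouse organs over time and targeted oncogenic changes to them. Each tumour was measured on 1 Affymetrix mouse expression array, with the same RNA extraction in both groups. The labels used here give no genotype, strain, driver allele, age or treatment for any of the 11 tumours, and so do not show whether the groups differ in their initiating lesion. They also do not say whether samples came from separate animals, so the p-values measure only the spread between these samples, which may be technical. A further array each from an abdominal and a liver metastasis of gastric adenocarcinoma is given as values with no test.

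The stomach lining is folded into glands. Pit cells at the surface secrete mucus and trefoil peptides, neck and chief cells make other mucins and digestive proenzymes, parietal cells pump acid, and endocrine cells release hormones such as gastrin, somatostatin and ghrelin. An adenoma keeps a glandular epithelium in place, whereas an adenocarcinoma grows into the wall of the stomach and is embedded in a stroma of fibroblasts, vessels and immune cells.

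All values below are log2 levels as deposited, and a difference is the mean of the adenocarcinomas minus the mean of the adenomas with its standard error. A call required an absolute difference of at least 1 together with an adjusted p under 0.05, and calls held in all of the up to 21 other settings in which the gene was tested, unless a change is stated. Among these settings, 1 kept only samples with a number under 150 in their title, which were all 4 adenocarcinomas and 3 of the adenomas. Of 11025 genes tested, 1509 (13.7%) were called higher and 1211 (11%) lower in adenocarcinomas, so that 24.7% were called in all. The median difference over all genes was 0.09. Centring each array on its median moved this median to -0.07 and the calls to 1190 higher and 1486 lower, so 44.5% in place of 55.5% of the calls were higher. Quantile normalization gave 51.1%. The samples of the groups did not overlap for 15.7% of genes on the higher side and 12.1% on the lower side, 27.9% together. The 75th percentile of the array was 6.67 ± 0.01 in adenocarcinomas and 6.55 ± 0.05 in adenomas (SD, n = 4 and n = 7), and this difference of 0.12 gave the smallest p that an exact two-sided permutation test allows here, 0.0061. The 3′ minus 5′ difference of the actin control probe sets, which grows with RNA degradation, was 0.61 ± 0.18 in adenocarcinomas and 0.70 ± 0.11 in adenomas (exact permutation p = 0.3212). Levels under 4.09 lay below the value that at least 1 group mean had to exceed for a gene to be tested. That value is the 40th percentile of the levels and not a measured detection limit. A gene with 1 group mean under it was tested only because of the other group, which fixed the direction of its difference. Such genes made up 364 of the calls higher and 310 of the calls lower. In bulk tumours, fewer cells of a type and less RNA per cell cannot be told apart.

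The products of the stomach's own glands were lower in adenocarcinomas in every lineage examined. Of 11 pit cell products tested, 9 were called lower and 0 higher, with a median difference of -4.17. Of 10 neck and chief cell products 7 were called lower, of 8 parietal cell genes 5, and of 9 endocrine cell genes 7, with no member of these lists called higher and medians of -3.98, -2.43 and -2.38. Of all genes tested, 11% were called lower. Cblif, A4gnt, Atp4a, Aqp4, Ghrl, Chga and Chgb, among others, had adenocarcinoma means under 4.09. Such members were tested only because of their adenoma level and could not be called higher. Leaving out any 1 sample left 9 to 10 of the pit cell and 7 to 8 of the neck and chief cell products called lower.

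Among pit cell products, Psca, a cell surface protein of the gastric mucosa, had levels of 3.19, 3.47, 4.08 and 6.36 in the adenocarcinomas, against 10.52 to 11.96 with a median of 11.53 in the adenomas. It fell by 7.12 ± 0.50 (adjusted p = 2.8e-06), and the groups were far apart. Muc5ac, the main gel-forming mucin of the stomach surface, was at 5.17, 6.39, 4.06 and 8.33 in adenocarcinomas and at 9.58 to 12.92 (median 11.85) in adenomas, a difference of -5.77 ± 0.76 (adjusted p = 1.7e-04). Every adenocarcinoma lay below every adenoma for this mucin, with the fourth nearest to them. The sulfotransferase Sult1c2 differed by -5.50 ± 0.76 (adjusted p = 2.2e-04). Trefoil factor 1, Tff1, which protects the mucus layer, was retained at a high level but was still lower, at 12.16, 9.48, 10.80 and 12.96 in adenocarcinomas against 13.98 to 14.36 in adenomas (difference -2.82 ± 0.49, adjusted p = 8.1e-04). The gastrokines, secreted by surface cells, split the adenocarcinomas. Gkn1 stood at 10.60, 4.21, 10.55 and 9.52 in the adenocarcinomas, lowest in the second, against 13.26 to 13.77 in adenomas (adjusted p = 0.002). The aspartic protease cathepsin E, Ctse, averaged 12.49 ± 0.38 in adenocarcinomas and 13.08 ± 0.19 in adenomas (SD, n = 4 and n = 7) and was not called.

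The order of the adenocarcinomas differed between pit cell products. Muc5ac was lowest in the third and Psca in the first. The second adenocarcinoma had the lowest level of Tff1, Gkn1, Gkn2 and of the neck cell peptide Tff2 among the 4, with Tff2 at 3.81 against 8.82 to 12.57 in the others, and of the epithelial adhesion protein Epcam, at 6.61 against 11.02 to 11.38. The mean level of the pit cell products was 5.36 there and 7.23 to 7.85 in the other adenocarcinomas, against 10.50 to 11.83 in the adenomas. Tff1 was at 9.48 or more and Ctse at 11.97 or more in all 4 adenocarcinomas.

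Most products of the deeper gland were near array background in the adenocarcinomas. Cblif, gastric intrinsic factor, which binds vitamin B12, had levels of 2.73, 3.08, 2.95 and 2.99 in adenocarcinomas, against 9.08 to 12.67 (median 10.04) in adenomas, a difference of -7.58 ± 0.59 (adjusted p = 5.6e-06). The pancreatic lipase cofactor Clps fell by 6.06 ± 1.13 (adjusted p = 0.0013), although the first adenocarcinoma, at 8.19, overlapped the lowest adenoma at 8.11. The glycosyltransferase A4gnt, which caps gland mucin, stood at 3.10 to 3.48 in adenocarcinomas and 6.35 to 9.88 in adenomas (difference -4.88 ± 0.59, adjusted p = 1.0e-04). The proenzymes pepsinogen C, Pgc, and Pga5 were at 2.93 to 3.29 and 2.87 to 3.25 in adenocarcinomas, while the adenomas reached 11.40 and 8.66.

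Acid pump genes were near the filter value in all adenocarcinomas and varied widely among adenomas. Atp4b, its beta subunit, was at 4.10, 4.33, 4.52 and 4.21 in adenocarcinomas and at 4.64 to 12.57 (median 9.12) in adenomas (difference -4.35 ± 1.22, adjusted p = 0.013). Atp4a, the catalytic subunit, was at 3.35 to 3.88 in adenocarcinomas and at 3.28 to 12.20 in adenomas, where the fifth and sixth adenoma, at 3.28 and 3.46, were as low as the carcinomas. Its difference of -4.21 ± 1.47 (adjusted p = 0.035) lost its call in 8 of the 11 fits that left out a sample, with adjusted p up to 0.075. The water channel Aqp4 of parietal cells differed by -3.52 ± 1.11 (adjusted p = 0.022, and 0.054 without the second adenocarcinoma). The fifth and sixth adenoma were also the lowest for Atp4b, at 4.64 and 5.48. Without the second adenocarcinoma, 3 in place of 5 parietal cell genes were called lower.

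Hormone genes were low in all 4 adenocarcinomas. Ghrl, which encodes ghrelin, was at 3.06, 3.15, 2.85 and 2.77 in adenocarcinomas and at 7.68 to 12.50 (median 10.12) in adenomas (difference -7.15 ± 0.83, adjusted p = 7.5e-05). The granins Chgb and Chga, proteins of hormone granules, fell by 5.46 ± 0.46 and 4.67 ± 0.45 (adjusted p = 9.8e-06 and 2.2e-05). Somatostatin, Sst, stood at 3.01 to 3.18 in adenocarcinomas and 5.77 to 9.26 in adenomas. Gastrin, Gast, was at 2.64 to 2.83 in adenocarcinomas. In adenomas it was at 3.05 to 3.40 in the first 4 and at 8.03, 6.40 and 8.78 in the other three, and it was not called (-2.38 ± 1.14, adjusted p = 0.11).

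**Figure D1:**
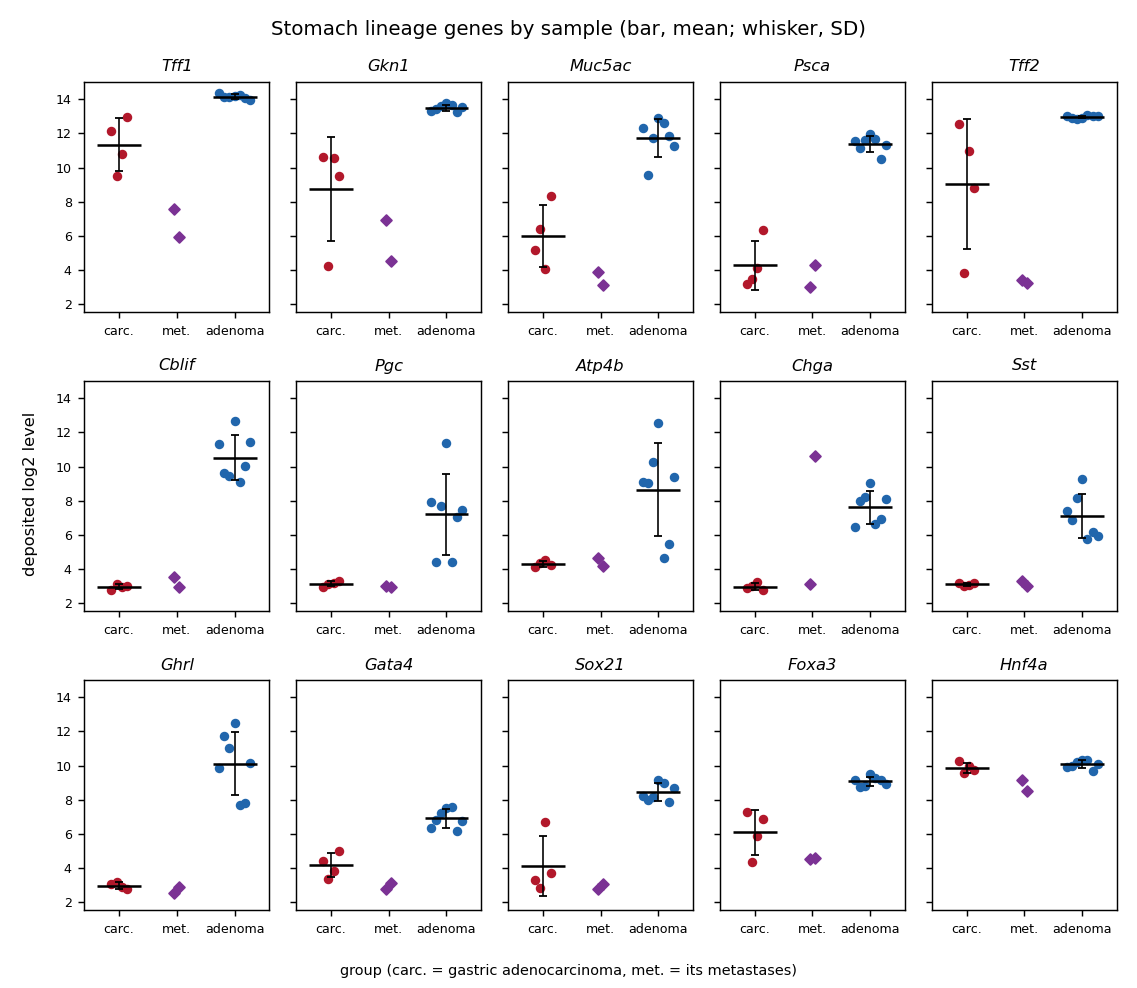
Deposited log2 level (vertical axis) of 15 stomach lineage genes in 4 gastric adenocarcinomas (red), 2 metastases (purple diamonds) and 7 gastric adenomas (blue). Bars are means and whiskers SD of the primary tumours. Cblif lies at 2.73 to 3.08 in adenocarcinomas and at 9.08 to 12.67 in adenomas, while Hnf4a overlaps between the groups.

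The transcription factors of the gastric epithelium were mostly lower or kept. Of 15 tested, 9 were called lower and 1 higher, with a median of -2.06. No call higher remained without the first or second adenocarcinoma, or without the second or seventh adenoma. Nkx6-3, a homeobox factor of the antral stomach, was at 2.65 to 3.18 in adenocarcinomas and differed by -4.56 ± 1.25 (adjusted p = 0.011), but it was also at 2.86 in the third adenoma and 4.04 in the second, and it was not called among samples with title numbers under 150 or with array weights (adjusted p up to 0.19). Sox21, a SOX family repressor of the foregut, had levels of 3.26, 2.80, 6.69 and 3.71 in adenocarcinomas and 7.87 to 9.16 (median 8.20) in adenomas (difference -4.31 ± 0.61, adjusted p = 2.4e-04). Foxa3, a forkhead factor of endoderm, was at 7.28, 4.32, 5.87 and 6.86 in adenocarcinomas and 8.72 to 9.50 in adenomas (adjusted p = 3.0e-04). Gata4, a zinc finger factor of the glandular stomach, averaged 4.16 ± 0.72 in adenocarcinomas and 6.91 ± 0.56 in adenomas (SD, n = 4 and n = 7). Its relative Gata6 averaged 8.78 ± 0.77 in adenocarcinomas and 8.88 ± 0.37 in adenomas and was not called. Hnf4a, a nuclear receptor of gut epithelium, averaged 9.87 ± 0.30 in adenocarcinomas and 10.08 ± 0.24 in adenomas and was not called either. Sox2, a factor of the foregut, was at 7.40, 7.59 and 8.52 in 3 adenocarcinomas and at 2.78 in the first, against 7.77 to 9.39 in adenomas (not called, adjusted p = 0.074).

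Genes of intestinal epithelium, which can appear in gastric tumours, were mostly lower too, and the adenomas differed strongly among themselves. Of 11 intestinal transcription factors and villus genes, 7 were called lower and 1 higher, with a median of -2.69. Among all genes tested, 11% were called lower and 13.7% higher. The brush border phosphatase Alpi was at 2.79 to 2.98 in adenocarcinomas and at 3.35 to 12.09 (median 8.53) in adenomas (difference -5.28 ± 1.22, adjusted p = 0.0045). The transmembrane mucin Muc13 and the fatty acid binding protein Fabp2 differed by -4.54 ± 0.98 and -4.35 ± 1.10 (adjusted p = 0.0031 and 0.0077). Alpi, Muc13 and Fabp2 had adenocarcinoma means under 4.09. They were tested only because of their adenoma level and could not be called higher. The exception was Cdh17, the liver-intestine cadherin, which rose by 3.72 ± 0.89 (adjusted p = 0.0057). It stood at 9.15, 10.11, 9.16 and 8.40 in adenocarcinomas, and in adenomas at 3.94 to 6.27 except for the fourth, at 9.49. Of 9 goblet and Paneth cell genes 6 were called lower and 0 higher, with a median of -4.21. Among them Agr2, a disulfide isomerase needed for mucin folding, differed by -5.52 ± 0.94, and Fcgbp, a protein of the mucus gel, by -5.07 ± 0.99 (adjusted p = 7.4e-04 and 0.0018). Clca1, also on this list, had an adenocarcinoma mean under 4.09 and could not be called higher.

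The 12 largest decreases included Cblif, Ghrl and Psca described above. Lypd8, which encodes a secreted protein known in the mouse colon to keep bacteria off the epithelium, showed the largest one. It had levels of 3.17, 2.98, 3.08 and 2.89 in adenocarcinomas and 11.12 to 12.94 (median 12.74) in adenomas, a difference of -9.40 ± 0.31 (adjusted p = 1.2e-08). Clca1, a secreted goblet cell protein, was at 5.13 in the first adenocarcinoma and 2.56 to 2.75 in the others, against 10.82 to 13.23 in adenomas (difference -9.00 ± 0.58, adjusted p = 1.7e-06). Gsdma2, a gasdermin of the pore-forming family expressed in mouse stomach, fell by 8.04 ± 0.78 (adjusted p = 2.3e-05). Pigr, the receptor that carries immunoglobulin A across epithelium, was at 4.75, 2.66, 8.70 and 2.80 in adenocarcinomas and at 11.30 to 12.93 (median 12.57) in adenomas (difference -7.59 ± 0.93, adjusted p = 1.0e-04). Only the third adenocarcinoma kept an appreciable Pigr level. The other members were Tmem30b, a flippase subunit (-7.48 ± 0.39), Ifit1bl1, an IFIT family member (-7.29 ± 0.85), Psapl1, a saposin-like protein (-7.29 ± 0.58), Ces1f, a carboxylesterase (-6.77 ± 0.62), and Sptssb, a subunit of serine palmitoyltransferase (-6.34 ± 0.73). The adjusted p-values of these last 5, from Tmem30b to Sptssb, lay between 4.2e-07 and 7.9e-05.

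The 12 largest increases were of mixed function. Nrn1, a membrane-anchored neurite growth protein, was at 10.24, 11.76, 10.91 and 11.33 in adenocarcinomas and at 3.38 to 6.29 (median 4.01) in adenomas, a difference of 6.90 ± 0.50 (adjusted p = 3.5e-06). Prkg2, the cGMP-dependent protein kinase II, was at 10.86 to 11.37 in adenocarcinomas and 3.28 to 7.03 in adenomas (difference 6.79 ± 0.58, adjusted p = 1.1e-05). For both genes the fourth adenoma was the highest adenoma and still far below every adenocarcinoma. Nrk, a kinase known from placenta and embryo, rose by 6.68 ± 0.36 (adjusted p = 5.9e-07), and all 7 adenomas were at 2.80 to 3.27. Tfr2, a transferrin receptor that senses iron in hepatocytes, rose by 5.36 ± 0.39 (adjusted p = 3.5e-06). Mir100hg, a noncoding host transcript of microRNAs, rose by 5.59 ± 0.60, the carboxypeptidase-like Cpxm1 by 4.91 ± 0.31, the tetraspanin-like Tm4sf1 by 4.80 ± 0.51 and Tnnt2, cardiac troponin T, by 4.78 ± 0.56. Cdh2, Cdkn2a, Chil3 and Ankrd1 completed the set and are taken up with their groups. All 24 leading genes were called in every setting in which they were tested.

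**Figure D2:**
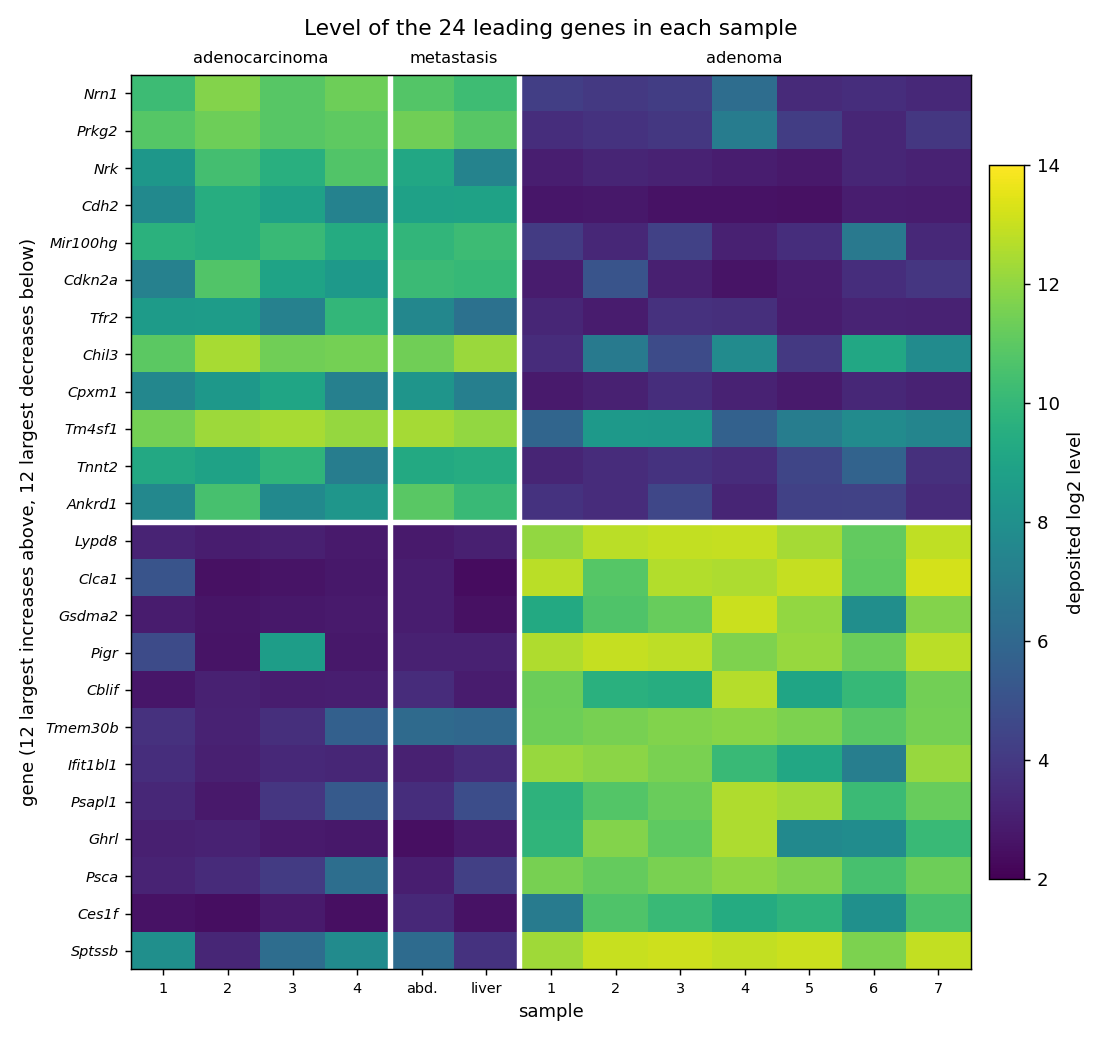
Heat map of the deposited log2 level (colour, 2 to 14) of the 12 genes with the largest increase (upper rows) and the 12 with the largest decrease (lower rows) in 4 adenocarcinomas, the abdominal and liver metastasis, and 7 adenomas (columns). Lypd8 is at 2.89 to 3.17 in every adenocarcinoma and at 11.12 to 12.94 in every adenoma, and at 2.86 and 3.08 in the metastases.

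Genes of simple epithelia were lower in part. Of 16 genes of simple epithelia 9 were called lower and 0 higher, with a median of -1.70, and 7 to 10 were called lower when 1 sample was left out. The list's mean level was 9.31, 6.72, 9.09 and 9.80 in adenocarcinomas and 10.22 to 10.42 in adenomas, so the second adenocarcinoma was again the lowest. Cldn18, the tight junction claudin of the stomach, was at 3.30, 3.22, 10.73 and 10.57 in adenocarcinomas and 11.15 to 11.73 in adenomas. Only the first and second adenocarcinoma were near background. The difference of -4.42 ± 1.34 (adjusted p = 0.019) was -3.20 without the first and -3.17 without the second, with adjusted p of 0.066 and 0.068, and its call was also lost among samples with title numbers under 150 (adjusted p = 0.13). Tjp3, a scaffold of tight junctions, fell by 3.15 ± 0.68 (adjusted p = 0.0032), and Grhl2, a transcription factor of epithelial genes, by 3.11 ± 0.37 (adjusted p = 9.1e-05). The epithelial factor Elf3 differed by -2.87 ± 0.51 (adjusted p = 9.7e-04). By contrast Cdh1, which encodes E-cadherin, was at 11.25, 10.14, 11.07 and 11.29 in adenocarcinomas and 11.31 to 11.81 in adenomas. Its difference of -0.59 ± 0.20 did not reach the minimum of 1, although the groups did not overlap. The keratin Krt18 averaged 12.81 ± 0.34 in adenocarcinomas and 12.70 ± 0.25 in adenomas (SD, n = 4 and n = 7) and was not called.

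Because several of these genes moved together, their promoters were searched for the E-box CAGGTG, the sequence bound by the zinc finger factors of the ZEB and SNAIL families, on both strands (reverse complement CACCTG). In the RefSeq sequences of build GRCm38.p6, the 250 bases before the start held it in 17.2% of 32851 windows of all genes. Among simple epithelium genes 10 of 16 windows of 12 genes held it (62.5%), against 3 of 9 windows of YAP target genes (33.3%). A match describes the sequence and does not show a site in use. The 3 promoters shown belong to genes that fell. They are Tmem30b, 1 of the 12 largest decreases, at chr12:73546396-73546645 with 4 matches that begin 212, 169, 106 and 80 bases before the start, Elf3 at chr1:135258473-135258722 with 1 match 140 bases before the start, and Tjp3 at chr10:81291582-81291831 with 1 match 108 bases before it. All lie on the minus strand and are written 5′ to 3′ along the gene, with the E-box in capitals.
Tmem30b: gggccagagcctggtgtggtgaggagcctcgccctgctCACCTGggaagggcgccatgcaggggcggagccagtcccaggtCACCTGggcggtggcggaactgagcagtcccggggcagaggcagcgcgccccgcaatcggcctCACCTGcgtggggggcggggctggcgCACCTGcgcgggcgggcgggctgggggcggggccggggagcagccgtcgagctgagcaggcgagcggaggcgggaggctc
Elf3: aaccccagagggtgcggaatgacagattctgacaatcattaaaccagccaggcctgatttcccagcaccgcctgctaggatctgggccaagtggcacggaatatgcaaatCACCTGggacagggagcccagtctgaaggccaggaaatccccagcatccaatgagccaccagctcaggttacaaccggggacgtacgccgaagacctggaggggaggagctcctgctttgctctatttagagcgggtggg
Tjp3: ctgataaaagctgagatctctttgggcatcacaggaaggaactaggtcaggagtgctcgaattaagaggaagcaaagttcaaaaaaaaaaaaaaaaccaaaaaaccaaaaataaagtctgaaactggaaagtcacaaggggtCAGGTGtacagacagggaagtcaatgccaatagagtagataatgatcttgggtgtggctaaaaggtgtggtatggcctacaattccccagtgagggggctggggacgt

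Genes of mesenchymal cells were higher in adenocarcinomas as a group. Of 15 genes linked to the mesenchymal transition 13 were called higher and 0 lower, with a median of 2.30, against 13.7% of all genes tested called higher. The 13 did not change in number when any 1 sample was left out. Cdh2, which encodes N-cadherin, was at 7.70, 9.49, 8.87 and 7.34 in adenocarcinomas and at 2.55 to 2.95 in all 7 adenomas, a difference of 5.62 ± 0.35 (adjusted p = 1.5e-06). Twist1, a transcription factor of mesoderm, was at 7.32, 7.12, 7.75 and 6.18 in adenocarcinomas and at 2.50 to 3.50 in adenomas (difference 4.22 ± 0.29, adjusted p = 2.4e-06). Both genes were thus near background in every adenoma. With adenoma means under 4.09, they were tested only because of their adenocarcinoma level and could not be called lower. Fibronectin, Fn1, rose by 3.39 ± 0.52 (adjusted p = 3.8e-04), a 10.5-fold change. Zeb1, a repressor of epithelial genes, rose by 2.06 ± 0.35 (adjusted p = 7.9e-04), and Vim, the mesenchymal intermediate filament, by 2.96 ± 0.30 (adjusted p = 3.4e-05). Snai2 was not called (1.03 ± 0.48, adjusted p = 0.1). Of 19 cadherins measured, a family chosen after its values were seen, 9 were tested and 7 called higher, against 13.7% of all genes tested. Among them were Cdh6 and Cdh13, with differences of 3.39 ± 0.57 and 3.35 ± 0.69. They also include Cdh2 and Cdh11 of the mesenchymal list, the endothelial Cdh5 and the intestinal Cdh17. Cdh5 and Cdh10, like Cdh2, had adenoma means under 4.09 and could not be called lower.

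Matrix genes followed the same direction. Of 13 collagens of fibrils and basement membranes 11 were called higher and 0 lower (median 1.82, and 8 to 11 with a sample left out). Col8a1, a short-chain collagen of vessel and basement membranes, was at 10.18, 9.40, 10.45 and 8.98 in adenocarcinomas and 4.64 to 6.88 (median 5.29) in adenomas (difference 4.22 ± 0.42, adjusted p = 2.7e-05). Col5a1 rose by 2.25 ± 0.45 (adjusted p = 0.0019), and Col1a1, the main fibrillar collagen, by 2.54 ± 0.70 (adjusted p = 0.012), with an adjusted p that rounded to 0.05 and no call among samples with title numbers under 150. Of 17 matrix proteases and their inhibitors 8 were called higher and 1 lower (median 1.21). The largest differences there belonged to the inhibitors Timp1, at 3.93 ± 0.60, and Timp2, at 3.19 ± 0.31 (adjusted p = 3.9e-04 and 2.2e-05). Plat, tissue plasminogen activator, differed by 2.82 ± 0.61 (adjusted p = 0.003). The collagenase Mmp13 (-1.29 ± 1.12) and the stromelysin Mmp3 (0.57 ± 0.82) were not called.

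Markers of stromal cells were read beside these values. Of 11 fibroblast markers 5 were called higher and 1 lower, with a median of 0.54. Mfap5, a microfibril protein, rose by 3.72 ± 0.43, Fap, a protease of activated fibroblasts, by 3.17 ± 0.32, and the surface protein Thy1 by 2.90 ± 0.44 (adjusted p between 3.0e-05 and 3.8e-04). The broad fibroblast markers Pdgfra (0.21 ± 0.27), Dcn (0.32 ± 0.37) and Postn (0.54 ± 0.59) were not called. The mean level of the list was 6.61 to 7.30 in adenocarcinomas and 5.52 to 6.74 in adenomas, which overlap. Of 7 smooth muscle markers 0 were called by limma, and 0 had an unadjusted p under 0.05, but 3 were called lower without the third adenocarcinoma. Their mean level was 7.51 in the third adenocarcinoma and 4.90 to 5.11 in the others, against 5.25 to 7.23 in adenomas. The part of stromal cell content in the mesenchymal and matrix genes was not tested.

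**Figure D3:**
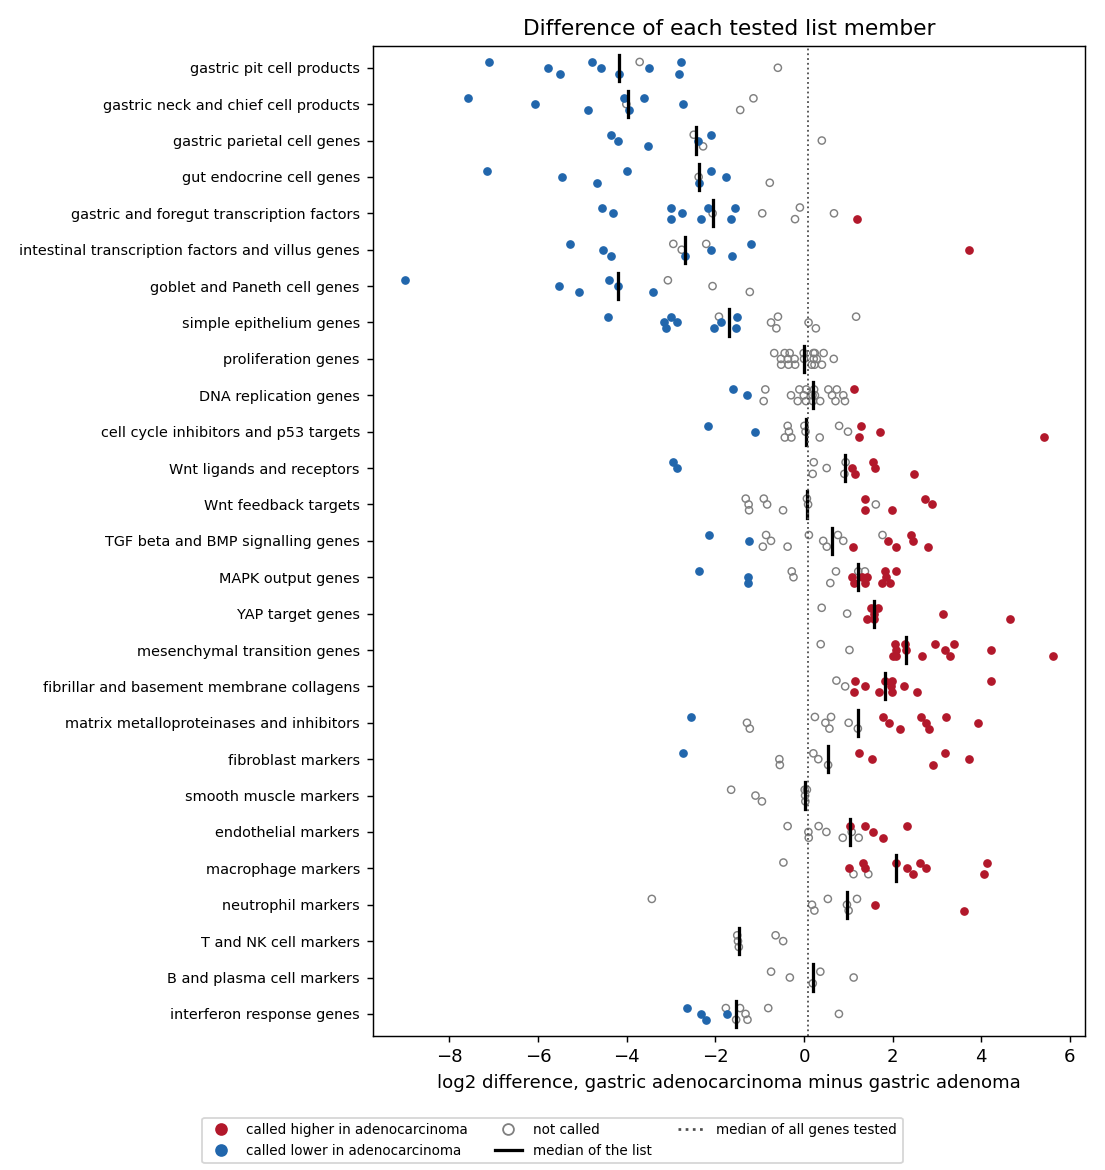
Log2 difference, adenocarcinoma minus adenoma (horizontal axis), of every tested member of the gene lists drawn (rows). Red points were called higher, blue points lower and open points were not called, the black bar is the list's median and the dotted line the median of all 11025 genes tested. Stomach, goblet and epithelial lists lie to the left with medians between -4.21 and -1.70, and the mesenchymal, collagen and macrophage lists to the right with medians of 2.30, 1.82 and 2.08.

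YAP target genes were higher in adenocarcinomas. YAP and its partner TAZ are coactivators that bind DNA through TEAD factors and respond to cell density and matrix stiffness. Of 9 target genes 7 were called higher and 0 lower, with a median of 1.57, and 6 to 8 were called higher with a sample left out. Ankrd1, a muscle ankyrin repeat protein often used as a reporter of YAP, was at 7.61, 10.53, 7.71 and 8.30 in adenocarcinomas and at 3.23 to 4.54 (median 3.77) in adenomas (difference 4.65 ± 0.50, adjusted p = 4.7e-05). Ccn2, connective tissue growth factor, was at 11.61 to 12.52 in adenocarcinomas and at 6.73 to 10.70 (median 9.08) in adenomas, an 8.75-fold difference (3.13 ± 0.63, adjusted p = 0.002). Cav1, a coat protein of caveolae, rose by 1.66 ± 0.27 (adjusted p = 5.4e-04). The matricellular protein Ccn1 (1.43 ± 0.44, adjusted p = 0.02, and 0.075 without the second adenocarcinoma), the scaffold protein Amotl2 (1.59 ± 0.27, adjusted p = 7.4e-04) and the scaffold protein Ajuba (1.50 ± 0.44, adjusted p = 0.016) were also called. Outside the list, and chosen after its values were seen, Wwtr1, which encodes TAZ, rose by 2.76 ± 0.38 and Tead2 by 3.14 ± 0.51 (adjusted p = 2.1e-04 and 5.6e-04).

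The TEAD motif GGAATG (reverse complement CATTCC) was searched in the same 250-base windows. It was present in 12.6% of all 32851 windows, in 5 of 9 windows of 7 YAP target genes (55.6%) and in 2 of 16 windows of simple epithelium genes (12.5%). The 4 target genes with matches are shown with the motif in capitals. Ankrd1 lies at chr19:36119845-36120094, Ccn1 at chr3:145649986-145650235 and Ajuba at chr14:54577662-54577911, all on the minus strand, and Amotl2 at chr9:102717554-102717803 on the plus strand. The matches begin 210 and 123 bases before the start of Ankrd1, 103 before Ccn1, 186 and 164 before Ajuba and 65 before Amotl2.
Ankrd1: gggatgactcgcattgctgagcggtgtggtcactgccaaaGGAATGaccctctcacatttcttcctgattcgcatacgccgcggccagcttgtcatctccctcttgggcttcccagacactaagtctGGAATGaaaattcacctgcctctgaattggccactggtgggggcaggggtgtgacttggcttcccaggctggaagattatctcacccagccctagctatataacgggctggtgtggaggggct
Ccn1: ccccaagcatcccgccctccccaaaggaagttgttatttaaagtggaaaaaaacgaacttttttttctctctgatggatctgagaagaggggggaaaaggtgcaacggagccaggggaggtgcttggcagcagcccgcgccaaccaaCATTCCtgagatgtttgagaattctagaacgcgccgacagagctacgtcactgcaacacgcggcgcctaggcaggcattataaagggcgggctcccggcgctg
Ajuba: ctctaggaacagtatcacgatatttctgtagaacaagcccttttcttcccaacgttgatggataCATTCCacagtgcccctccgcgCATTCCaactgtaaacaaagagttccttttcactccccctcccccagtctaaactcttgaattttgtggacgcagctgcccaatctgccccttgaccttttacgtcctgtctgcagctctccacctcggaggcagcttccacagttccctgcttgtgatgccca
Amotl2: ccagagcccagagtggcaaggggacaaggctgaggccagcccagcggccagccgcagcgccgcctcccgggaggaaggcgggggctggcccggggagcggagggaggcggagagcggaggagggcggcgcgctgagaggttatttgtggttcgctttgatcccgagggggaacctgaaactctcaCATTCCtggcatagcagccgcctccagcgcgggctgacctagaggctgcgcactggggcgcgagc

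Genes that report MAPK signalling, the growth factor cascade through RAS and ERK, were mostly higher. Of 19 tested 10 were called higher and 3 lower, with a median of 1.22. Spry1, a feedback inhibitor of receptor tyrosine kinases, was at 8.63, 7.89, 6.82 and 8.72 in adenocarcinomas and 4.99 to 6.88 in adenomas (difference 2.07 ± 0.43, adjusted p = 0.0025). Only the third adenocarcinoma overlapped the highest adenoma. The AP-1 factor Fosl1 rose by 1.94 ± 0.33 (adjusted p = 7.1e-04), and the ERK phosphatase Dusp6 by 1.83 ± 0.34 (adjusted p = 0.0013). Adenomas were not uniformly low in these genes: Dusp6 was at 9.67 and 9.45 in the first and sixth adenoma and at 7.58 to 8.71 in the others. The receptor Erbb3 was lower, at 9.68, 4.43, 8.69 and 8.97 in adenocarcinomas and 10.07 to 10.84 in adenomas (difference -2.36 ± 0.76, adjusted p = 0.025), and was not called among samples with title numbers under 150 (adjusted p = 0.17).

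Wnt signalling genes moved in both directions. The shares over all genes tested were 13.7% called higher and 11% called lower. Of 12 ligands and receptors 5 were called higher and 2 lower (median 0.92), and 3 were called higher without the third adenocarcinoma or without the fourth adenoma. The secreted ligand Wnt11 averaged 3.87 ± 0.41 in adenocarcinomas and 6.81 ± 1.22 in adenomas (difference -2.95 ± 0.57, adjusted p = 0.0016), and Lgr4, a receptor for R-spondins, fell by 2.88 ± 0.39 (adjusted p = 1.8e-04). The receptor Fzd2 was at 5.86 to 6.84 in adenocarcinomas and 3.23 to 4.39 in adenomas, and rose by 2.48 ± 0.28 (adjusted p = 5.8e-05). Of 14 feedback targets 5 were called higher and 0 lower, but their median was 0.08 and turned to -0.07 when arrays were centred on their medians. The secreted inhibitors Sfrp1, Dkk2 and Dkk3 had the largest differences, of 2.88 ± 0.56, 2.74 ± 0.51 and 1.98 ± 0.46 (adjusted p = 0.0017, 0.0013 and 0.005). Axin2, a direct target of beta-catenin, averaged 5.03 ± 0.46 in adenocarcinomas and 4.96 ± 1.27 in adenomas (SD, n = 4 and n = 7) and was not called. Its highest values were 6.96 and 6.62, in the first and sixth adenoma, and the same samples were highest in the Wnt inhibitor Nkd1 (8.22 and 8.25) and the Wnt-induced factor Sp5 (7.09 and 7.73). Myc and cyclin D1, Ccnd1, rose by 1.39 ± 0.24 and 1.37 ± 0.29 (adjusted p = 8.8e-04 and 0.0029), with no overlap between the groups.

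Of 18 genes of TGF beta and BMP signalling, pathways that act on both epithelium and stroma, 6 were called higher and 2 lower (median 0.64). Without the third adenocarcinoma, 4 were called lower. For this list and the Hedgehog and Notch lists, the shares over all genes tested were 13.7% called higher and 11% called lower. The ligand Tgfb3 was at 7.87, 7.41, 8.34 and 6.96 in adenocarcinomas and at 3.76 to 5.78 in adenomas (difference 2.79 ± 0.41, adjusted p = 3.2e-04). The activin inhibitor Fst rose by 2.45 ± 0.63 (adjusted p = 0.0082). The latent TGF beta binding protein Ltbp2 differed by 2.42 ± 0.63 (adjusted p = 0.0088, and 0.091 among samples with title numbers under 150). Of 6 Hedgehog pathway genes 2 were called higher and 3 lower, and only 1 lower without the second adenocarcinoma. The ligand Ihh, made by gut epithelium, fell by 2.41 ± 0.44 (adjusted p = 0.0011), and of 9 Notch pathway genes 1 was called (1 to 3 with a sample left out, and 3 without the third or without the sixth adenoma), the ligand Jag1 at 1.83 ± 0.44 (adjusted p = 0.0058, and 0.062 among samples with title numbers under 150).

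Proliferation genes gave no call. Of 20 tested 0 were called by limma and 0 had an unadjusted p under 0.05, with differences between -0.67 and 0.67, against 24.7% called among all genes, and leaving out single samples called at most 1. Mki67, the antigen of dividing cells, was at 9.13, 7.43, 6.86 and 8.22 in adenocarcinomas and at 7.42 to 9.58 (median 8.70) in adenomas (difference -0.67 ± 0.44, adjusted p = 0.24). The mitotic genes Tpx2 and Ttk differed by 0.67 ± 0.46 and -0.52 ± 0.46. The list's mean level was 8.30, 6.81, 5.73 and 7.02 in adenocarcinomas and 5.88 to 7.86 in adenomas, so the first adenocarcinoma was the highest tumour and the third the lowest. Of 22 DNA replication genes 1 was called higher and 2 lower, but 0 higher and 4 lower without the first adenocarcinoma and 3 higher and 1 lower without the third, with the origin licensing factor Cdc6 called lower (-1.60 ± 0.37, adjusted p = 0.0046).

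Some regulators of the cell cycle differed. Cdkn2a, which encodes the tumour suppressors p16 and p19Arf, was at 7.27, 10.73, 8.98 and 8.50 in adenocarcinomas and at 2.65 to 5.13 (median 3.07) in adenomas, a difference of 5.41 ± 0.60 (adjusted p = 5.8e-05). The related inhibitor Cdkn2b, encoding p15, rose by 1.71 ± 0.24 (adjusted p = 2.4e-04). Cdkn1a, the p21 inhibitor and a target of p53, was lower in adenocarcinomas, at 7.66, 8.91, 7.38 and 8.85, than in adenomas, at 9.80 to 10.87 (median 10.38), and fell by 2.17 ± 0.32 (adjusted p = 3.1e-04). Of 15 inhibitors and p53 targets 4 were called higher and 2 lower, against 13.7% and 11% of all genes tested, and 9 were not called. Their median of 0.03 turned to -0.12 with median centring.

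Prom1, the gene of the cells that the series targeted, was lower in adenocarcinomas with 1 exception among the adenomas. It was at 3.68, 5.86, 8.02 and 6.66 in adenocarcinomas. In adenomas it was at 9.88 to 11.93 in 6 samples and at 2.87 in the third, with a median of 11.68. The groups overlapped through that adenoma, and the difference of -4.06 ± 1.56 was not called (adjusted p = 0.052). Without the third adenoma it was -5.27 with an adjusted p of 3.5e-04. Of 14 markers of gastric and intestinal stem cells, Prom1 included, 1 was called higher and 1 lower, and the median was -0.04. With a sample left out, 1 to 2 were called higher and 0 to 2 lower. Olfm4, a secreted glycoprotein of crypt base cells, differed by -2.26 ± 0.86 (adjusted p = 0.05, called in 8 of the other settings), and Ascl2, a Wnt-responsive factor, by -1.99 ± 0.67 (adjusted p = 0.03, with its call lost in 7 settings). Lgr5, the receptor that marks stem cells at the gland base, averaged 5.40 ± 0.96 in adenocarcinomas and 5.31 ± 1.63 in adenomas (SD, n = 4 and n = 7).

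**Figure D4:**
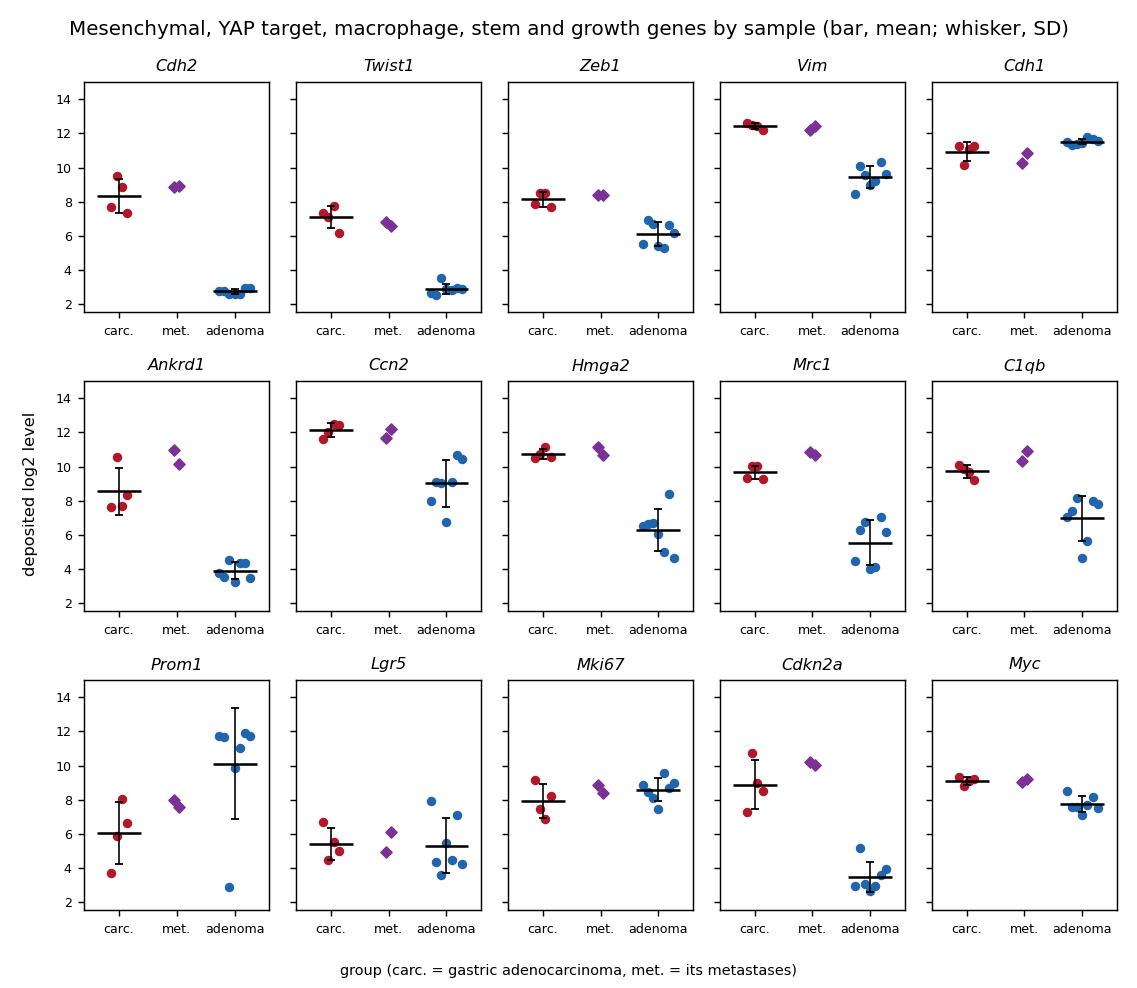
Deposited log2 level (vertical axis) of 15 genes of mesenchymal state, YAP output, macrophages, stem cells and growth in 4 gastric adenocarcinomas (red), 2 metastases (purple diamonds) and 7 gastric adenomas (blue). Bars are means and whiskers SD of the primary tumours. Cdh2 lies at 7.34 to 9.49 in adenocarcinomas and 2.55 to 2.95 in adenomas, the Mki67 ranges overlap, and 1 adenoma has a Prom1 level of 2.87.

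Macrophage genes were higher in adenocarcinomas. For the counts that follow, the shares over all genes tested were 13.7% called higher and 11% called lower. Of 13 macrophage markers 10 were called higher and 0 lower, with a median of 2.08, and 9 to 11 were called with a sample left out. Mrc1, the mannose receptor, was at 9.32, 10.01, 10.00 and 9.29 in adenocarcinomas and at 3.96 to 7.04 (median 6.13) in adenomas (difference 4.13 ± 0.61, adjusted p = 3.1e-04). Arg1, the arginase of alternatively activated macrophages, was at 10.65 to 12.29 in adenocarcinomas and at 4.70 to 9.04 in adenomas (difference 4.07 ± 0.79, adjusted p = 0.0017). The complement gene C1qb rose by 2.75 ± 0.61 (adjusted p = 0.0035). Chil3, a chitinase-like protein of mouse macrophages and 1 of the 12 largest increases, was at 10.99 to 12.44 in adenocarcinomas and at 3.53 to 9.21 in adenomas (difference 5.30 ± 0.99, adjusted p = 0.0014). The list's mean level was 7.93 to 8.76 in adenocarcinomas and 4.70 to 7.47 in adenomas, with no overlap. Of 9 neutrophil markers 2 were called higher (4 without the second adenoma and 3 without the third adenocarcinoma), led by the interleukin-1 decoy receptor Il1r2 at 3.60 ± 0.49 (adjusted p = 1.9e-04), and the neutrophil granule protein Ltf, also made by glands, was at -3.43 ± 1.32 (adjusted p = 0.052). Of 5 T and NK cell markers 0 were called by limma and 0 had an unadjusted p under 0.05, and of 5 B and plasma cell markers 0 were called and 1 had such a p. The mean level of the T and NK list was 3.08 to 3.46 in adenocarcinomas and 3.19 to 4.43 in adenomas, near the filter value. The B and plasma cell list was highest in the fourth adenocarcinoma, at 5.80, against 3.62 to 4.25 in the other adenocarcinomas and 3.48 to 5.59 in adenomas. Of 11 interferon response genes 4 were called lower, with a median of -1.53 (8 without the sixth adenoma), among them the oligoadenylate synthetase-like Oasl2 at -2.63 ± 0.64 (adjusted p = 0.0062). The list members Oasl2, Ifit1 and Usp18 had adenocarcinoma means under 4.09. They were tested only because of their adenoma level and could not be called higher.

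Genes of epithelial damage and defence and of squamous epithelium were mixed. The shares over all genes tested were 11% called lower and 13.7% called higher. Of 13 damage and defence genes 5 were called lower and 1 higher (median -1.05). Sprr2a1, a small proline-rich protein of stressed epithelium, was at 9.39, 5.55, 8.56 and 10.48 in adenocarcinomas and 13.13 to 13.54 in adenomas (difference -4.80 ± 0.67, adjusted p = 2.2e-04). The surface protein Ly6d fell by 6.13 ± 0.90 (adjusted p = 3.1e-04), whereas the acute phase protein Saa3 rose by 2.56 ± 0.67 (adjusted p = 0.0091). Of 16 cytokines and chemokines 2 were called lower and 1 higher (median -0.29), but 4 were called higher without the second adenoma, 4 lower without the fourth adenoma and 0 higher without the fourth adenocarcinoma. The list included the epithelial cytokine Il18 down by 2.62 ± 0.35 (adjusted p = 1.8e-04). Of 11 squamous and forestomach genes 3 were called lower and 2 higher (median -1.50). Leaving out 1 sample gave 2 to 7 lower, with 7 without the first and 5 without the sixth adenoma, and 1 to 2 higher. Krt13, a keratin of internal squamous epithelia, differed by -2.02 ± 0.52 (adjusted p = 0.0085) and was not called in 2 settings.

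Endothelial genes rose in part, with 5 of 13 called higher, 0 lower and a median of 1.04. Only 3 were called without the third or without the fourth adenocarcinoma, and 8 without the sixth adenoma. Cldn5, the claudin of vessel walls, was at 7.07, 4.87, 5.97 and 6.27 in adenocarcinomas and 3.01 to 4.00 in adenomas (difference 2.33 ± 0.35, adjusted p = 3.6e-04). Its adenoma mean was under 4.09, so it could not be called lower. Pecam1 (0.87 ± 0.42) and Kdr (0.10 ± 0.42), both general endothelial markers, were not called. Of 14 hypoxia and glycolysis genes 3 were called higher and 1 lower, with the angiogenic factor Vegfa at 1.44 ± 0.32 (adjusted p = 0.0036). Beside both lists, 13.7% of all genes tested were called higher and 11% lower.

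Markers of tissues next to the stomach were examined for admixture. Of 10 pancreatic acinar genes 0 were called higher and 2 lower, with a median of 1.08. The lower ones were the elastase Cela1 and Clps, which is also on the list of neck and chief cell products above and whose difference of -6.06 was the lowest of the list. The acinar genes had a mean level of 7.36 in the first adenocarcinoma and of 3.57 to 4.46 in the others, against 4.12 to 6.11 in adenomas. In the first adenocarcinoma the elastase Cela3b was at 10.00, the amylase Amy2a5 at 10.01 and the chymotrypsinogen Ctrb1 at 9.51. Amy2a5 was higher still, at 11.82, in the fourth adenoma. Msln, a surface protein of mesothelium and of some carcinomas, was at 9.88, 11.43, 11.69 and 11.69 in adenocarcinomas and at 4.45 to 9.52 in adenomas (difference 4.55 ± 0.76, adjusted p = 6.5e-04), while the keratin Krt19 fell by 1.51 ± 0.23 (adjusted p = 3.7e-04, and 0.2 in the fit over 55 primary tumours) and the uroplakin Upk1b was not called. Of 8 hepatocyte genes 1, the iron carrier Trf, was called higher, and the list had a mean level of 4.92 to 6.05 in adenocarcinomas and 4.50 to 5.53 in adenomas. Of the remaining lists, 1 of 7 mast cell genes (0 to 2 with a sample left out) and 1 of 3 striated muscle genes were called lower, 1 of 7 MHC class II genes, 1 of 3 striated muscle genes, 2 of 5 erythroid and platelet genes (1 to 3 with a sample left out, and 1 without the second or the third adenocarcinoma) and 3 of 4 enteric neuron and glia genes (2 to 4) were called higher, and 0 of 2 adipocyte genes were called. Over all genes tested, 13.7% were called higher and 11% lower, and the mast cell and MHC class II counts lie near these shares. Among the enteric neuron and glia genes, only 4 of 11 measured were tested. Stmn2, a neuronal microtubule regulator, was at 5.05, 7.88, 7.09 and 6.12 in adenocarcinomas and 2.71 to 3.53 in adenomas (difference 3.41 ± 0.43, adjusted p = 1.2e-04). The adenoma means of Stmn2 and Uchl1, a neuronal ubiquitin hydrolase, were 3.13 and 3.09, under 4.09. Stmn2 and Uchl1 were tested only because of their adenocarcinoma level and could not be called lower. The part of such admixture in the results was not tested.

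In the 2 metastases, most of these values lay on the side of the adenocarcinomas. The mean level of the pit cell products was 5.46 in the abdominal and 4.36 in the liver metastasis, against 5.36 to 7.85 in the primary adenocarcinomas. In the abdominal and the liver metastasis Tff1 was at 7.55 and 5.92, below every primary adenocarcinoma, and Cldn18 at 3.21 and 3.18. Cdh2 (8.85 and 8.91), Cdkn2a (10.20 and 10.04), Ankrd1 (10.95 and 10.14) and Mrc1 (10.83 and 10.65) lay within or above the range of the primary adenocarcinomas in both the abdominal metastasis, given first, and the liver metastasis. Prom1 was at 7.59 in the liver metastasis and slightly higher in the abdominal one. The liver metastasis differed in endocrine granins, with Chgb at 11.32 and Chga at 10.64, against 2.81 and 3.10 in the abdominal metastasis and at most 4.25 and 3.21 in the primary adenocarcinomas.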

How the data were processed

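RNA of dissected tumours was extracted with RNeasy kits and hybridised to Affymetrix mouse expression arrays, per the labels' protocols. The authors deposited log2 values per probe set (1.85 to 14.36 over all arrays), and Partek 6.6 is named in the submitters' processing notes. The sources used here do not state how background was corrected or how probes were normalized and summarized. The values were used as deposited.

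Of 45141 probe sets, 28898 had 1 gene symbol and named 17097 genes. A gene was represented by its probe set with the highest mean, and 11025 genes whose mean exceeded the 40th percentile (4.09) in at least 1 group were tested. Differences between 4 adenocarcinomas and 7 adenomas were fitted in limma 3.58.1 (R 4.3.3) with lmFit and eBayes with an intensity trend and adjusted by Benjamini-Hochberg over all genes tested. The fit was tested on simulated data. Genes were named by rule: Prom1, among called genes without overlap the 12 that increased and the 12 that decreased most, and up to 3 tested members of each of 43 lists with the largest difference. Members and lists were chosen with earlier results of these data known, and other genes named in the text were chosen after their values were seen. Array summaries were compared by exact permutation tests. Alternatives covered scaling, filter, probe set choice, samples fitted, array weights, prior and each sample left out. Arrays correlated between 0.843 and 0.986. Figures used Python 3.11.15 and matplotlib 3.10.9.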

Additional observations from a re-analysis of the deposited data

Results flagged for a closer look

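In 18 of 292 groups of values examined (6.16%), 1 sample lay far from the others of its group by Dixon's criterion, which chance alone meets in about 1 of 20 groups. No explanation was weighed for any of them.

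In the adenocarcinomas, the first sample was far above the others in the goblet cell gene Clca1 (5.13, against 2.56 to 2.75) and far below them in Msln (9.88, against 11.43 to 11.69). The third adenocarcinoma was highest in the smooth muscle genes Actg2 (8.30, others 4.51 to 5.14) and Cnn1 (7.62, others 3.56 to 4.14), in the vascular receptor Flt1 (8.08, others 7.21 to 7.35) and in the haemoglobin gene Hba-a1 (13.07, others 11.88 to 11.93). The fourth was highest in Plat (11.52, others 10.40 to 10.51).

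In the adenomas, the third lay far below the others in Prom1 (2.87, others 9.88 to 11.93) and in Cldn5 (3.01, others 3.62 to 4.00). The fourth was the highest in Nrn1 (6.29, others 3.38 to 4.25), Prkg2 (7.03, others 3.28 to 4.16) and Erbb3 (10.84, others 10.07 to 10.37), and the lowest in the mast cell protease Mcpt1 (4.20, others 6.88 to 8.54). The sixth adenoma was the highest in Mir100hg (6.855, others 3.09 to 4.31) and Sfrp1 (8.51, others 5.40 to 6.20). The first was the highest in the elastase Cela3b (5.82, others 2.69 to 3.51), the second in Il1r2 (5.91, others 3.67 to 4.47), and the fifth was the lowest in the neuronal ubiquitin hydrolase Uchl1 (2.75, others 3.09 to 3.23).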

How the results depend on the processing

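Across the alternatives other than dropping the minimum difference, 1031 to 1620 genes were called higher and 950 to 1486 lower, against 1509 and 1211 as reported. Without a minimum difference the counts were 2794 and 2063. Leaving out single samples gave 1333 (without the second adenocarcinoma) to 1620 (without the sixth adenoma) higher and 1075 to 1289 lower. Median centring gave 1190 higher and 1486 lower. For Prom1 the difference was -4.22 (adjusted p = 0.046) with median centring, -4.06 with the 60th percentile filter (adjusted p = 0.047) and in the fit over 55 primary tumours (adjusted p = 0.026), and -2.71 (adjusted p = 0.37) among samples with title numbers under 150. With single samples left out it ran from -5.27, without the third adenoma, to -3.27. The actin 3′ minus 5′ difference ran from -0.17 to -0.04. The Gapdh 3′ minus 5′ difference, -0.13 as measured, ran from -0.18 (exact permutation p = 0.0476, without the first adenoma) to -0.0901 with samples left out and was 0.0433 (p = 0.6286) among samples with title numbers under 150. The difference in the array 75th percentile ran from 0.11 to 0.14 with samples left out and was 0.14 (p = 0.0571, exact permutation) among samples with title numbers under 150. Upk1b, at -0.15, was 0.30 with the mean of its probe sets, 0.05 without the first and 0.04 without the fourth adenocarcinoma, and 0.12 without the second adenoma, and with single samples left out ran from -0.378 to 0.12. The cause of these changes was not tested. Over the named genes, 2778 values kept direction and call, 96 lost the call, 55 gained it and 4 changed sign, all 4 of Upk1b. Of 111 named genes called, 84 were called in every setting in which they were tested. No paired analysis was possible because the labels give the groups no shared replicate numbers. Levels near array background limit the lower of the levels compared, and the number of arrays limits the precision of every value.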

Other observations

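The families described here were chosen after their values were seen, and some of their members are also on lists above. Of 15 glutathione transferases, which conjugate reactive compounds, 12 were called lower and 0 higher in adenocarcinomas, with a median of -2.04. Gsta2 was at 7.46, 7.01, 6.34 and 10.59 in adenocarcinomas and at 12.36 to 12.84 in adenomas (difference -4.76 ± 0.60, adjusted p = 1.2e-04), and Gstm3 differed by -3.95 ± 0.44 (adjusted p = 6.2e-05). The quinone reductase Nqo1 was at 5.23, 3.55, 3.87 and 7.95 in adenocarcinomas and at 10.18 to 11.90 in adenomas (difference -6.02 ± 0.69, adjusted p = 7.1e-05). Of 9 carboxylesterases, which hydrolyse esters and drugs, 8 were called lower, against 11% of all genes tested, with Ces2b down by 4.74 ± 0.37 (adjusted p = 5.7e-06). All but Ces2g had adenocarcinoma means under 4.09. They were tested only because of their adenoma level and could not be called higher. The alcohol dehydrogenase Adh1 fell by 5.69 ± 0.39 (adjusted p = 2.4e-06). Of 7 mucins 6 were called lower and 0 higher (median -4.02), including Muc5ac and Muc13 given above and the membrane mucins Muc3 (-5.49 ± 1.16) and Muc4 (-4.02 ± 0.60), while Muc5b was not called. Muc3, Muc4, Muc13 and Muc20 had adenocarcinoma means under 4.09, so they could not be called higher. The same held for the glutathione transferases Gstm3, Gstm6 and Gstp3.

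Other genes were higher. Hmga2, a chromatin protein of embryonic tissues, was at 10.48, 10.72, 11.13 and 10.58 in adenocarcinomas and at 4.65 to 8.36 in adenomas (difference 4.46 ± 0.56, adjusted p = 1.2e-04). Cldn6, a claudin of embryonic epithelia, rose by 3.98 ± 0.52 (adjusted p = 1.5e-04). Of 6 insulin-like growth factor binding proteins 3 were called higher, with Igfbp3 at 3.53 ± 0.49 and Igfbp4 at 2.48 ± 0.27 (adjusted p = 2.2e-04 and 4.9e-05). Other families moved both ways. Of 18 aldehyde dehydrogenases 6 were called lower and 3 higher (median -0.69). Aldh1a2, which makes retinoic acid, rose by 3.41 ± 0.38 (adjusted p = 5.4e-05), whereas its relatives Aldh1a1 and Aldh1a7 fell by 3.32 ± 0.59 and 4.23 ± 0.35 (adjusted p = 0.001 and 8.4e-06) and Aldh1a3 was not called. Of 5 cytosolic sulfotransferases of the Sult family 3 were called lower and 1, Sult1a1, higher. Of 9 Adamts proteases 6 were called higher and 1 lower, and of 11 Galnt glycosyltransferases 5 were called lower and 1 higher. Over all genes tested, 13.7% were called higher and 11% lower. Adamts4, Adamts7, Adamts10, Galnt15, Igfbp1 and Aldh1a2 had adenoma means under 4.09 and could not be called lower. Sult1b1 and Aldh3b2 had adenocarcinoma means under 4.09 and could not be called higher.

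Several samples carried signals of their own. The fourth adenoma was the highest adenoma in Alpi (12.09), the apolipoprotein Apoa4 (11.77, others 3.64 to 6.74) and Guca2b, the uroguanylin gene (9.60, others 3.08 to 3.86). The seventh adenoma held the highest Ido1 (9.93), a tryptophan-degrading enzyme. The third adenocarcinoma had the neuropeptides Vip at 10.10 and Gal at 8.38, against 2.82 to 2.97 and 2.84 to 3.54 in the other adenocarcinomas. The second adenocarcinoma had the antiprotease genes Serpina1a at 10.30 and Serpina1b at 11.36, against 2.52 to 4.88 and 3.54 to 7.81 in the other adenocarcinomas.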
